A study of Mus musculus and Homo sapiens with 12 samples.

Results

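Complex I (NADH:ubiquinone oxidoreductase) is the largest enzyme of the mitochondrial respiratory chain. The nuclear genes for it were followed in human and mouse T-cell acute lymphoblastic leukaemia (T-ALL), a cancer of immature T cells that NOTCH1 often drives. The members were all genes whose symbol begins with NDUFA, NDUFB, NDUFC, NDUFS or NDUFV. They numbered 91 of 21943 listed genes, 47 of 11513 in the human table and 44 of 10430 in the mouse table. The human members were 7 core subunits, 30 accessory subunits, the 7 assembly factors NDUFAF1 to NDUFAF7, NDUFA4 and its relative NDUFA4L2, and 1 antisense RNA, NDUFA6-AS1. The mouse members were 7 core subunits, 29 accessory subunits, the 7 assembly factors and Ndufa4. NDUFA4 was first counted with complex I and is now placed with complex IV, so it is kept apart from the subunits here.

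Complex I passes electrons from NADH to ubiquinone and pumps protons across the inner mitochondrial membrane, which supplies the membrane potential for ATP synthesis. Its N module binds NADH and takes the electrons, its Q module hands them to ubiquinone, and 4 membrane modules named after the mitochondrially encoded subunits ND1, ND2, ND4 and ND5 carry the proton path. Core subunits hold the cofactors and are shared with bacteria, accessory subunits surround and stabilise them, and assembly factors build the modules but are absent from the finished enzyme. The mitochondrially encoded subunits were listed in neither table and were not analysed here. Published schemes place a few accessory subunits in different modules.

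RNA was measured by sequencing in 12 libraries, 2 per group. KOPTK1, an established human T-ALL line, was grown for 72 h with the gamma-secretase inhibitor Compound E (gSI), which blocks release of active NOTCH1, or with its carrier DMSO. In mice, NOTCH1-delta E leukaemia, an activated form of the receptor, was transplanted a second time into C57BL/6 animals. These were kept for 3 weeks on diets of 0, 0.4, 0.8 or 8 g/kg valine, the last being the control diet. GFP-positive leukaemic cells were then sorted from the spleen, and each diet gave 1 library named TALL2 and 1 named TALL3. What the names stand for is not in the labels, nor whether the 2 libraries of a group are separate cultures or animals, so p-values measure the spread between these libraries only. The label of the treatment also gives 0.4 and 0.8 g/L valine in drinking water with the deficient diet, and the diets are named here by their g/kg figure.

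The values were FPKM, fragments per kilobase of gene scaled to the size of the library. Reads recovered from the FPKM steps totalled 28566081 and 42245079 in the gSI libraries, and 22939478 and 25302350 in the DMSO libraries. The mouse libraries held 14222895 to 37687253 reads. A subunit had a median of 626 reads per library in human and 917 in mouse, with ranges of 37 to 6840 and 27 to 7722. The NOTCH target DTX1 had 1.29 and 1.35 FPKM with gSI, against 12.0 and 12.7 FPKM with DMSO. T-cell markers were listed in both tables (10 of 10 in each). In mouse they summed to 3046 to 4035 FPKM per library, and all 6 B-cell markers were unlisted. The sum hides T-cell markers that differed between mouse libraries. Cd4 had 2.9 FPKM in TALL2 and 87.2 in TALL3 on 0 g/kg, against 4.9 and 13.5 on 8 g/kg. Cd8a ranged from 2.9 FPKM in TALL3 on 0.8 g/kg to 53.7 in TALL2 on 0.4 g/kg. In KOPTK1, CD79A had 3.54 and 4.07 FPKM with gSI, against 9.48 and 9.35 FPKM with DMSO, and CD79B was also listed.

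In KOPTK1, a small set of complex I genes fell with gSI while the complex as a whole was centred near no change. Of 23 subunits with a mean of at least 1 FPKM, 4 fell and 0 rose in limma at an adjusted p under 0.05, when 30.3% of the 6679 tested genes were called lower and 22.8% higher. At an unadjusted p under 0.05, 6 subunits were lower and 3 higher, beside 33% and 25.3% of tested genes. The median log2 fold change of the 23 subunits was -0.045, beside -0.031 for all tested genes, and 13 were below 0, beside 54.9%. Thus the share of subunits called lower was below the share over the table. In 9 subunits both gSI libraries lay below both DMSO libraries, and in 4 they lay above, while such separation was seen in 42.4% and 33.9% of tested genes.

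None of the 6 tested core subunits was called in this fit. NDUFV1, which binds NADH and the flavin cofactor, had 12.0 and 13.4 FPKM with gSI, against 14.005 and 15.2 FPKM with DMSO. NDUFS1, the iron-sulphur subunit beside it in the N module, had 3.46 and 3.41 FPKM with gSI, against 4.11 and 3.71 FPKM with DMSO. Both N-module subunits were lower in each gSI library than in either DMSO library. In the Q module, NDUFS3, which links the N and Q modules, had 1.76 and 1.77 FPKM with gSI, against 1.76 and 1.904 FPKM with DMSO. The gSI and DMSO ranges of NDUFS3 overlapped. NDUFS7, which carries the last iron-sulphur cluster before ubiquinone, had 1.49 and 1.53 FPKM with gSI, against 1.12 and 1.45 FPKM with DMSO. NDUFS8, an iron-sulphur subunit, had 5.38 and 5.42 FPKM with gSI, against 5.23 and 5.37 FPKM with DMSO. Each gSI value lay above both DMSO values for these 2 genes, though NDUFS7 missed the threshold (log2 fold change 0.14, SE 0.0656, limma adjusted p = 0.0802). Without DMSO replicate 2 NDUFS7 passed (0.24, limma adjusted p = 0.00485), and without DMSO replicate 1 its fold change was 0.033.

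Of the 4 subunits that fell, 3 belong to the ND4 module at the far end of the membrane arm, where 30.3% of tested genes were called lower. The median log2 fold change of the 5 tested members of this module was -0.25, beside -0.031 for all tested genes. Its other 2 tested members, NDUFB11 (-0.18) and NDUFB1 (0.045), were not called. NDUFB5 had 2.25 and 1.97 FPKM with gSI, against 3.43 and 3.00 FPKM with DMSO (log2 fold change -0.44, SE 0.0754, limma adjusted p = 2.13e-05). NDUFB10 had 14.4 and 15.8 FPKM with gSI, against 17.9 and 18.8 FPKM with DMSO (-0.27, SE 0.0816, limma adjusted p = 0.00753). NDUFB4 had 4.05 and 4.80 FPKM with gSI, against 5.44 and 5.46 FPKM with DMSO (-0.25, SE 0.0795, limma adjusted p = 0.00883). The fourth, NDUFS5, a subunit on the intermembrane-space face of the ND2 module, had 1.74 and 2.19 FPKM with gSI, against 2.60 and 2.53 FPKM with DMSO (-0.27, SE 0.0748, limma adjusted p = 0.00341). In all 4 genes, both gSI libraries lay below both DMSO libraries. Without gSI replicate 1, NDUFS5, NDUFB10 and NDUFB4 missed the threshold, with adjusted p of 0.279, 0.191 and 0.338, and the fold changes of NDUFS5 and NDUFB4 were -0.16 and -0.15. NDUFB4 also missed it without DMSO replicate 1 (adjusted p = 0.0515) and without DMSO replicate 2 (0.0512), and NDUFB10 without DMSO replicate 2 (0.0529). Under quantile scaling NDUFB10 and NDUFB4 missed it too, with 0.134 and 0.0609.

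The higher members with the smallest p, apart from NDUFS7, were NDUFB7 and NDUFA2. NDUFB7, another subunit of the intermembrane-space face, had 1.71 and 1.85 FPKM with gSI, against 1.48 and 1.55 FPKM with DMSO (log2 fold change 0.14, SE 0.0636, limma adjusted p = 0.062). NDUFA2, a small N-module subunit, had 2.69 and 2.67 FPKM with gSI, against 2.22 and 2.39 FPKM with DMSO (0.16, SE 0.0706, limma adjusted p = 0.0643). Both passed the threshold without DMSO replicate 2 (adjusted p = 0.0466 and 0.0318). They also passed under median-of-ratios scaling, with adjusted p of 0.036 and 0.045, so that the calls became 2 higher and 4 lower, beside 26.7% and 31.1% of tested genes. Under quantile scaling they were 2 higher and 2 lower, beside 29.8% and 27.7%. The median of the 23 subunits was then -0.029 under median-of-ratios and -0.018 under quantile scaling, beside -0.018 and 0.0043 for all tested genes.

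Human FPKM had been divided by long gene lengths, from 2467 to 132952 bp among the subunits, so the filter at 1 FPKM left out 14 subunits with a median of 288 reads per library. Levels are therefore not compared between human genes. A fit on the recovered reads (limma with voom weights, chosen after seeing the data) took in all 37 subunits. It called 10 lower and 2 higher, beside 28.8% and 25.4% of 11513 genes, with a median of -0.054 against -0.015 for all genes. All 4 subunits named above were among the 10 that fell. So were 5 subunits that the FPKM filter had left out: NDUFV2, NDUFS4, NDUFA12, NDUFA9 and NDUFB8. NDUFV1 also passed (log2 fold change -0.20, SE 0.0896, adjusted p = 0.0453).

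NDUFV2, the core subunit that pairs with NDUFV1, rested on few reads, 83 and 112 with gSI, against 70 and 112 with DMSO. As FPKM these were 0.0856 and 0.0788 with gSI, against 0.103 and 0.138 with DMSO, and the fold change was -0.56 (SE 0.215, limma-voom adjusted p = 0.0204). NDUFS4, which stabilises the N module, had 0.191 and 0.190 FPKM with gSI, against 0.265 and 0.280 FPKM with DMSO (-0.52, SE 0.102, limma-voom adjusted p = 1.94e-06). NDUFA9, which lies where the 2 arms meet, had 0.191 and 0.169 FPKM with gSI, against 0.292 and 0.255 FPKM with DMSO (-0.61, SE 0.143, limma-voom adjusted p = 8.02e-05). In each of these genes the gSI libraries lay below the DMSO libraries. The 2 subunits that rose were NDUFV3, an accessory subunit of the N module, with 0.544 and 0.589 FPKM with gSI, against 0.391 and 0.409 FPKM with DMSO (0.50, SE 0.12), and NDUFB2, with 0.551 and 0.551 FPKM with gSI, against 0.350 and 0.472 FPKM with DMSO (0.42, SE 0.122). Of the 10 N-module subunits, 4 fell and 1 rose on reads, where 28.8% and 25.4% of all genes did. None of the 5 Q-module subunits was called. In the ND4 module 3 of 6 subunits fell and 0 rose, beside the same shares of all genes. NDUFB1 (log2 fold change 0.076) and NDUFB6 (0.13) of that module were above 0.

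**Figure D1:**
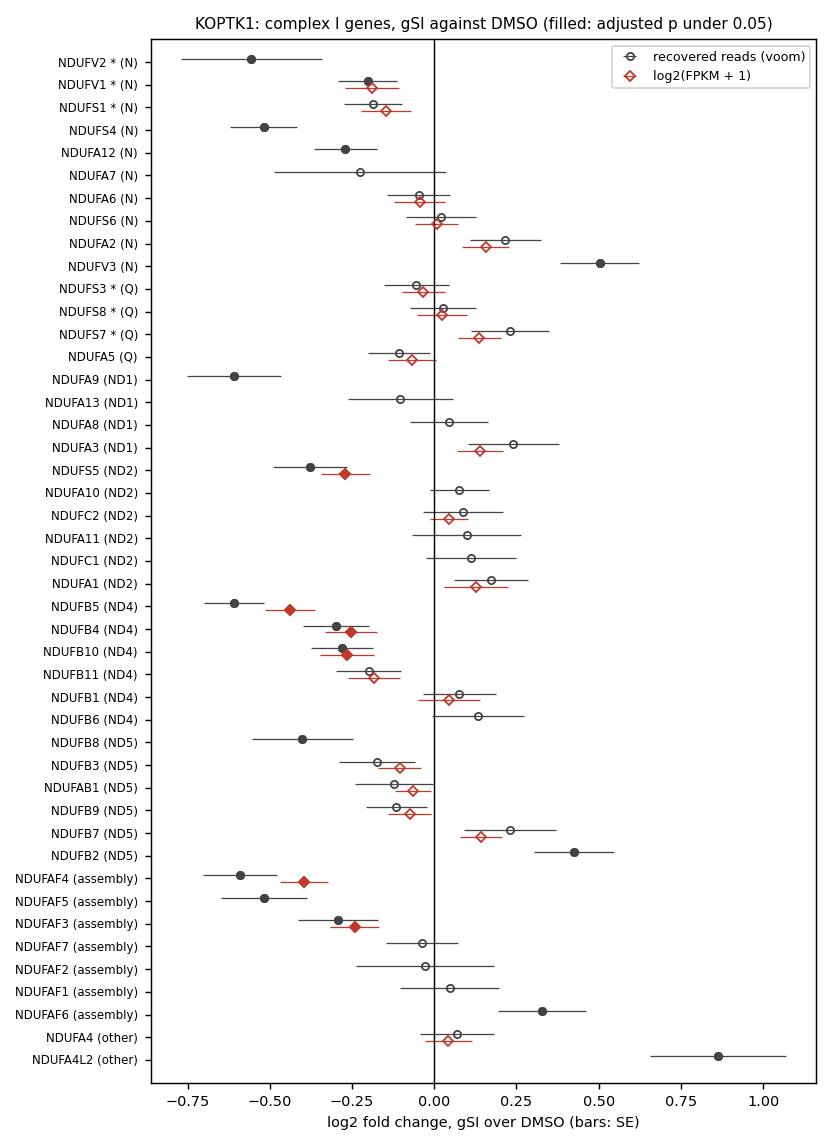
Log2 fold change of gSI over DMSO in KOPTK1 for complex I genes, 2 libraries per condition. Diamonds are from log2(FPKM + 1) and circles from recovered reads, bars are the SE, filled symbols have an adjusted p under 0.05, and asterisks mark core subunits, with the module in parentheses. NDUFB5, NDUFB4, NDUFB10 and NDUFS5 are filled in both fits, while the Q-module subunits shown are open in both fits.

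Among the assembly factors, the partners NDUFAF3 and NDUFAF4, which work on the Q module, both fell. NDUFAF4 had 1.93 and 1.62 FPKM with gSI, against 2.82 and 2.48 FPKM with DMSO (log2 fold change -0.40, SE 0.0738, limma adjusted p = 5.84e-05). NDUFAF3 had 4.32 and 4.28 FPKM with gSI, against 5.36 and 5.18 FPKM with DMSO (-0.24, SE 0.0748, limma adjusted p = 0.00786), and missed the threshold without either gSI library (0.0951 and 0.121). They were the only 2 of the 7 factors past the FPKM filter, in a fit that called 30.3% of tested genes lower and 22.8% higher. On reads, NDUFAF5, which modifies NDUFS7, also fell (-0.52, SE 0.131, limma-voom adjusted p = 2.68e-04). NDUFAF6 rose (0.33, SE 0.134, limma-voom adjusted p = 0.0288), and 3 factors were not called. Over all genes on reads, 28.8% were called lower and 25.4% higher. NDUFAF5 had 0.266 and 0.301 FPKM with gSI, against 0.396 and 0.419 FPKM with DMSO. NDUFAF6 had 0.0567 and 0.0587 FPKM with gSI, against 0.0448 and 0.0470 FPKM with DMSO.

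NDUFA4 did not pass in either fit, with 2.24 and 2.42 FPKM with gSI, against 2.32 and 2.14 FPKM with DMSO. NDUFA4L2, its relative known for induction by low oxygen, rose on reads, with 0.861 and 0.895 FPKM with gSI, against 0.472 and 0.490 FPKM with DMSO (log2 fold change 0.86, SE 0.206, limma-voom adjusted p = 1.1e-04). The antisense RNA NDUFA6-AS1 also rose on reads (1.03, SE 0.164, limma-voom adjusted p = 3.06e-09). Its sense partner NDUFA6 had 7.09 and 7.88 FPKM with gSI, against 7.79 and 7.69 FPKM with DMSO, and was not called. The library kit keeps strand, but whether strand was used in counting is not given in the sources used here, so reads of the pair may be mixed.

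Among genes outside the family, of 8 tested assembly factors with other names, 4 fell and 1 rose, where 30.3% of tested genes were called lower and 22.8% higher. TMEM126A, which acts on the ND4 module, averaged 0.827 ± 0.107 FPKM with gSI and 1.47 ± 0.0319 FPKM with DMSO (SD, n = 2 each), with a log2 fold change of -0.44 and a limma adjusted p of 4.34e-07. CHCHD4, which imports intermembrane-space proteins, TMEM126B and the membrane insertase OXA1L also fell, by 0.31, 0.25 and 0.21 on the log2 scale. TIMMDC1, which acts on the ND1 module, rose by 0.20. Of 5 tested regulators of nuclear or mitochondrial respiratory genes, TFAM (-0.46), YY1 (-0.28), PPRC1 (-0.27) and GABPA (-0.23) fell and ESRRA (0.15) rose. The same shares of tested genes apply.

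In mouse leukaemia cells, all 36 subunits and all 7 assembly factors passed the FPKM filter. The recovered length was that of an annotated transcript for 39 of the 44 members, and for 31 it was that of their longest one. It could be far from that of the coding transcript used below, as for Ndufb7 with 4435 against 623 bases and Ndufa11 with 2661 against 545 bases. Levels are therefore not compared between mouse genes either.

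No complex I gene passed an adjusted p under 0.05 in any diet comparison, and neither did any of the 9943 tested genes (0% called in each direction). With 0 against 8 g/kg valine, 33 of 36 subunits nevertheless had a log2 fold change below 0, beside 52.2% of all tested genes. Their median was -0.18, beside -0.013 over all tested genes. Both 0 g/kg libraries lay below both 8 g/kg libraries in 20 of 36 subunits, where 22.9% of tested genes did so. They lay above in 1 subunit, Ndufb2, where 19.1% of tested genes did so. At an unadjusted p under 0.05, 6 subunits were lower and 0 higher in limma, beside 5.52% and 4.79% of tested genes, and 4 were lower and 0 higher in limma-voom, beside 4.67% and 5.06%. The mean FPKM on 0 g/kg differed from that on 8 g/kg by -28.2% to 18.8%, and 20 subunits were more than 10% lower, as were 26.4% of tested genes.

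The summed FPKM of the 36 subunits was 1841 in TALL2 and 1664 in TALL3 on 0 g/kg, 1794 and 1901 on 0.4 g/kg, 1776 and 1917 on 0.8 g/kg, and 1963 and 1972 on 8 g/kg. Every library of a restricted diet was thus below both control libraries. As a share of all listed FPKM, the subunits made up 0.536% ± 0.042 on 0 g/kg, 0.578% ± 0.0125 on 0.4 g/kg, 0.573% ± 0.0251 on 0.8 g/kg and 0.604% ± 0.00417 on 8 g/kg (SD, n = 2 each). The 1 library TALL3 on 0 g/kg held the lowest of the 8 values for 17 of 36 subunits, as for 15.5% of tested genes, and without it the median log2 fold change of 0 against 8 g/kg was -0.13. Without TALL2 on 0 g/kg it was -0.23. In bulk RNA, fewer cells of a type and less RNA per cell cannot be told apart.

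Summed neutrophil and erythroid markers moved with the diets. The 14 neutrophil markers, all listed, summed to 344 to 571 FPKM on 0 g/kg, 12.9 to 77.9 on 0.4 g/kg, 12.4 to 14.3 on 0.8 g/kg and 0.964 to 10.7 on 8 g/kg. Of 10 erythroid markers 8 were listed. They summed to 2.43 to 7.37 FPKM on 0 g/kg, 34.9 to 51.0 on 0.4 g/kg, 28.5 to 38.7 on 0.8 g/kg and 96.1 to 254 on 8 g/kg. Gata1 among them had 1.52 and 4.04 FPKM on 0 g/kg, against 1.21 and 4.54 on 8 g/kg. Klf1 had 0.880 and 0.452 on 0 g/kg, against 0.660 and 2.41 on 8 g/kg. Both genes overlapped between these diets, while the other listed erythroid markers were lower in both 0 g/kg libraries. Of 6 macrophage markers 3 were listed, at 4.31 to 12.6 FPKM in all 8 libraries. The part of these markers in the values of the complex I genes was not tested.

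**Figure D2:**
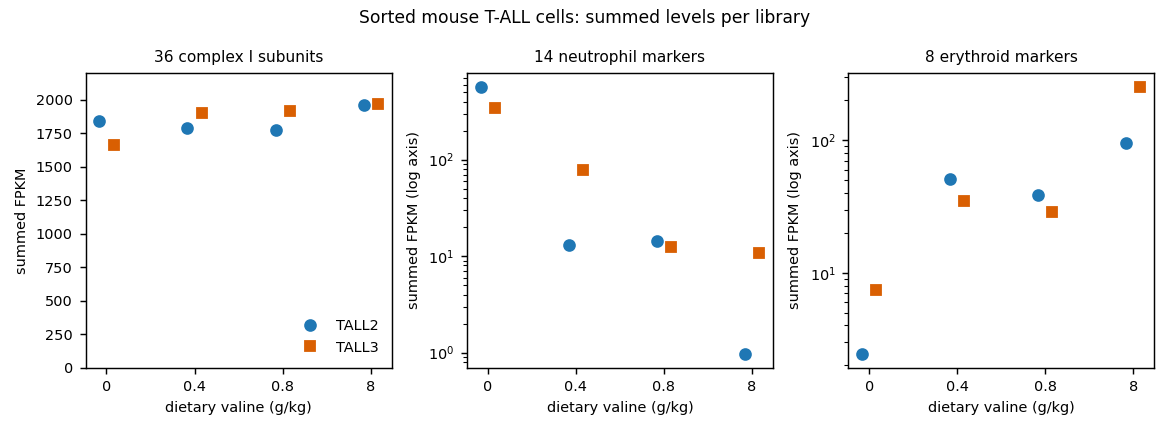
Summed FPKM per mouse library by dietary valine: 36 complex I subunits on a linear axis, 14 neutrophil and 8 erythroid markers on log axes. The 2 control libraries reach 1963 and 1972 for the subunits, above the 6 libraries of restricted diets. The neutrophil sum is highest and the erythroid sum lowest on 0 g/kg.

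The core subunits differed among themselves. In the Q module, Ndufs3 had 27.5 and 23.6 FPKM on 0 g/kg, 26.4 and 27.9 on 0.4 g/kg, 26.8 and 26.9 on 0.8 g/kg, and 34.2 and 31.6 on 8 g/kg. Every restricted library was below both control libraries. Ndufs7 had 54.8 and 55.0 FPKM on 0 g/kg, 57.1 and 58.5 on 0.4 g/kg, 54.3 and 60.7 on 0.8 g/kg, and 62.7 and 61.9 on 8 g/kg. Here too the control libraries were the 2 highest of 8. On 0, 0.4 and 0.8 g/kg, 22.9%, 31.8% and 22.5% of tested genes lay wholly below the same 2 control libraries. How many tested genes did so on every restricted diet was not counted, which also limits the genes so described below. Ndufs8 had 79.3 and 62.4 FPKM on 0 g/kg, 72.6 and 76.4 on 0.4 g/kg, 67.6 and 71.5 on 0.8 g/kg, and 74.7 and 72.5 on 8 g/kg. Ndufs8 overlapped the control values on 0 g/kg, and its 0 g/kg libraries were the highest and the lowest of the 8.

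In the N module, Ndufv1 had 86.9 and 71.8 FPKM on 0 g/kg, 80.1 and 75.6 on 0.4 g/kg, 70.7 and 82.4 on 0.8 g/kg, and 91.8 and 89.8 on 8 g/kg. Ndufv2 had 75.2 and 65.0 FPKM on 0 g/kg, 76.96 and 82.9 on 0.4 g/kg, 73.4 and 79.8 on 0.8 g/kg, and 82.4 and 84.4 on 8 g/kg. Both were below control on 0 g/kg in each library, and for Ndufv1 every restricted library was below both control libraries. Ndufs1 had 51.5 and 49.3 FPKM on 0 g/kg, 53.6 and 51.6 on 0.4 g/kg, 53.2 and 51.3 on 0.8 g/kg, and 50.4 and 50.8 on 8 g/kg. Ndufs1 overlapped the control values on 0 g/kg and lay above them at 0.4 and 0.8 g/kg. For the 7 core subunits the median log2 fold change of 0 against 8 g/kg was -0.18, close to that of the accessory subunits. The median over all tested genes was -0.013. Wholly below the controls lay 4 of 7, where 22.9% of tested genes did.

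**Figure D3:**
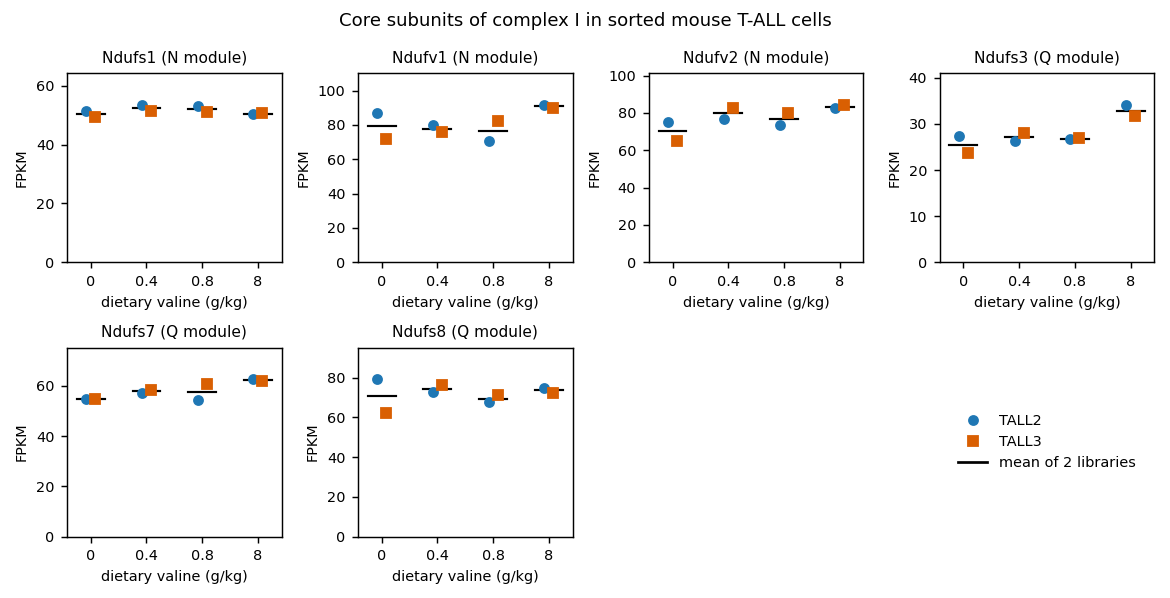
FPKM of 6 core subunits in each mouse library by dietary valine. Circles are TALL2, squares TALL3, lines the mean of the 2. Ndufs3, Ndufs7 and Ndufv1 lie below both control libraries on every restricted diet, and Ndufs1 stays close to the control values. The share of all tested genes lying below control on every restricted diet was not counted.

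The member with the smallest p for 0 against 8 g/kg was Ndufb3, a single-pass membrane subunit of the ND5 module. Ndufb3 had 23.8 and 19.4 FPKM on 0 g/kg, 29.3 and 31.2 on 0.4 g/kg, 29.1 and 32.3 on 0.8 g/kg, and 30.8 and 29.4 on 8 g/kg. Only the 0 g/kg libraries were low. The fold change against 8 g/kg was -0.47 (SE 0.118, limma adjusted p = 0.371). Against the mean of 0.4 and 0.8 g/kg it was -0.48 (SE 0.103, limma adjusted p = 0.441).

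Among the lower members Ndufs3 followed for 0 against 8 g/kg, at -0.36 (SE 0.1, limma adjusted p = 0.389). Then came Ndufb11 at -0.27 (SE 0.0902, limma adjusted p = 0.424). The assembly factor Ndufaf2, which was higher (0.48, limma adjusted p = 0.41), ranked between these 2. Ndufb11, an X-linked subunit of the ND4 module, had 38.9 and 36.02 FPKM on 0 g/kg, 38.3 and 41.8 on 0.4 g/kg, 39.3 and 43.1 on 0.8 g/kg, and 45.4 and 45.3 on 8 g/kg. It was thus below control in all 6 restricted libraries. By module, the median log2 fold change was -0.22 for the 10 N-module subunits, -0.18 for the 5 Q-module subunits, -0.073 for the 4 of ND1, -0.19 for the 6 of ND2, -0.18 for the 5 of ND4 and -0.16 for the 6 of ND5.

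On the high side, Ndufs5 had 3.197 and 3.66 FPKM on 0 g/kg, 3.05 and 3.71 on 0.4 g/kg, 3.998 and 2.87 on 0.8 g/kg, and 3.38 and 2.40 on 8 g/kg (0.20 for 0 against 8 g/kg, SE 0.209, limma adjusted p = 0.764). The diets overlapped throughout, and Ndufs5 rested on 27 to 82 reads per library. Ndufb2, which lay above control, had 2.56 and 2.53 FPKM on 0 g/kg, 2.46 and 2.99 on 0.4 g/kg, 2.74 and 3.21 on 0.8 g/kg, and 2.51 and 2.38 on 8 g/kg. The difference on 0 g/kg was smaller than the spread between libraries of the 0.4 or 0.8 g/kg diet.

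**Figure D4:**
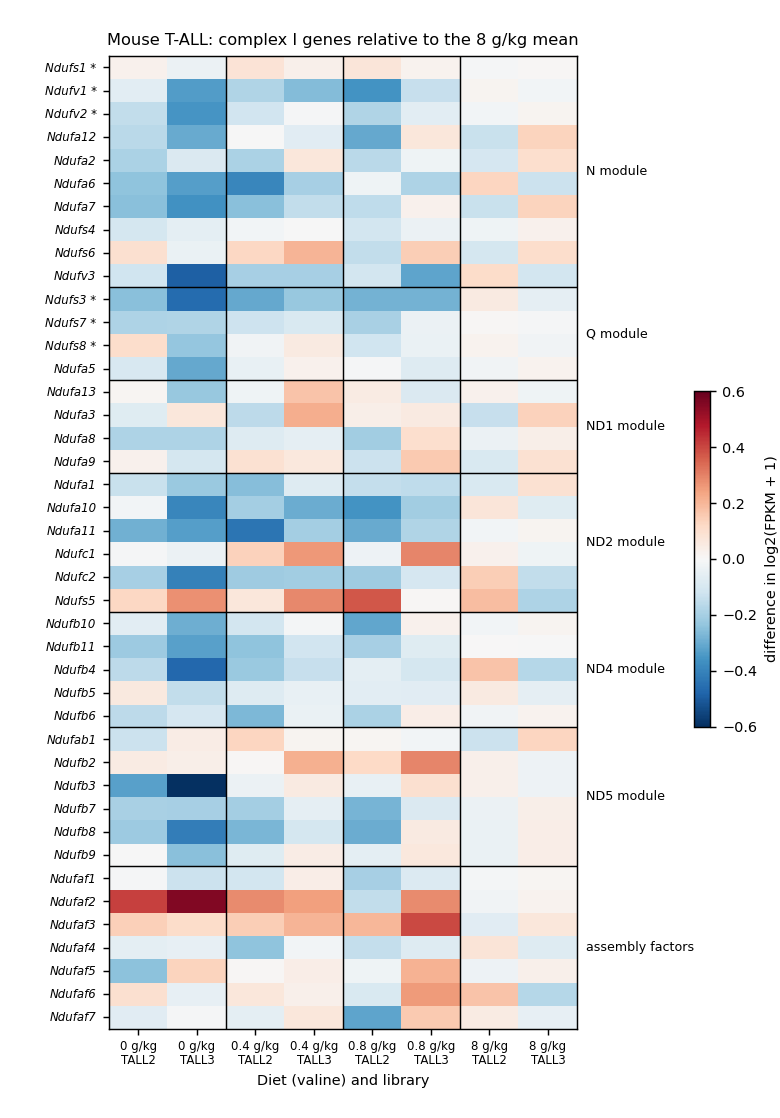
Difference of log2(FPKM + 1) from the mean of the 2 control libraries for 35 subunits and 7 assembly factors (rows, by module, asterisks for core subunits) in 8 mouse libraries (columns, by diet). Blue is below the control mean and red above. Subunit rows are mostly blue on 0 g/kg, most of all in TALL3, while Ndufaf2 is red there.

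Assembly factors were divided in direction. Of the 7, 4 were below and 3 above 0 for 0 against 8 g/kg, with a median of -0.036. Ndufaf2, an assembly factor related to the subunit Ndufa12, had 16.0 and 17.8 FPKM on 0 g/kg, 14.6 and 14.2 on 0.4 g/kg, 10.6 and 14.6 on 0.8 g/kg, and 11.6 and 12.0 on 8 g/kg. The 0 g/kg libraries were the 2 highest of 8. The fold change was 0.48 against 8 g/kg (SE 0.152, limma adjusted p = 0.41), 0.26 for 0.4 against 8 g/kg (limma adjusted p = 0.589) and 0.32 for 0 g/kg against the mean of 0.4 and 0.8 g/kg (limma adjusted p = 0.747). Ndufa12 itself had 20.8 and 18.8 FPKM on 0 g/kg, 23.4 and 22.3 on 0.4 g/kg, 18.8 and 24.6 on 0.8 g/kg, and 21.3 and 25.8 on 8 g/kg. Ndufaf3, a partner of Ndufaf4, had 8.01 and 7.81 FPKM on 0 g/kg, 8.04 and 8.40 on 0.4 g/kg, 8.37 and 9.73 on 0.8 g/kg, and 6.79 and 7.55 on 8 g/kg. All 6 restricted libraries of Ndufaf3 exceeded both controls, with its largest fold change on 0.8 g/kg (0.30, SE 0.114, limma adjusted p = 0.998). The share of tested genes above both controls in all 6 was not counted. Ndufaf4 had 9.52 and 9.60 FPKM on 0 g/kg, 8.29 and 9.84 on 0.4 g/kg, 8.93 and 9.40 on 0.8 g/kg, and 10.6 and 9.39 on 8 g/kg. Of 13 other assembly factors and 10 regulators tested in mouse, 0 were called in limma in any diet comparison. Ndufa4 had 67.6 and 53.9 FPKM on 0 g/kg, 65.1 and 68.6 on 0.4 g/kg, 65.3 and 70.5 on 0.8 g/kg, and 71.3 and 75.1 on 8 g/kg.

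The partial diets sat nearer the table's own shift. For 0.4 against 8 g/kg the median log2 fold change of the subunits was -0.061, beside -0.051 for all genes, and 14 of 36 lay wholly below the controls, where 31.8% of tested genes did. For 0.8 against 8 g/kg it was -0.078, beside -0.041, with 13 wholly below, where 22.5% of tested genes were. Wholly above were 3 and 2 subunits, where 16.9% and 10.6% of tested genes were. These comparisons share their control libraries with 0 against 8 g/kg. Under median-of-ratios scaling the subunits' median was -0.0040 for 0.4 against 8 g/kg, beside 0.00097 for all genes, and -0.033 for 0.8 against 8 g/kg, beside 0.00073. Then 20 and 23 subunits were below 0. Under quantile scaling the medians were -0.062 and -0.051, beside -0.0011 and -0.0028, with 20 and 25 below 0. Below 0 were 24 subunits on 0.4 g/kg and 27 on 0.8 g/kg, beside 59% and 60% of tested genes. At an unadjusted p under 0.05, 2 subunits were lower and 0 higher on 0.4 g/kg, beside 7.57% and 3.08% of tested genes in limma, with the same counts in limma-voom, beside 8.19% and 2.95%. At 0.8 g/kg 1 was lower and 0 higher, beside 3.21% and 1.15% in limma, and as many in limma-voom, beside 3.14% and 1.23%. The 2 libraries of a partial diet differed. TALL2 lay below both controls in 25 subunits on 0.4 g/kg and in 26 on 0.8 g/kg, where 45.7% and 45.1% of tested genes did. For TALL3 these counts were 14 and 16, where 42.1% and 42.6% of tested genes did. On 0 g/kg they were 21 in TALL2 and 29 in TALL3, where 39.4% and 39.6% of tested genes did.

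Of the members with the smallest p on partial diets, Ndufs3 appeared in both, at -0.27 for 0.4 against 8 g/kg and -0.28 for 0.8 against 8 g/kg (SE 0.1 each, limma adjusted p = 0.447 and 0.998). Ndufa11, a membrane subunit of the ND2 module, had 11.3 and 10.97 FPKM on 0 g/kg, 10.1 and 12.1 on 0.4 g/kg, 11.2 and 12.3 on 0.8 g/kg, and 13.9 and 14.2 on 8 g/kg. Its fold change was -0.32 on 0.4 g/kg (SE 0.112, limma adjusted p = 0.429) and -0.24 on 0.8 g/kg (limma adjusted p = 0.998), and the control libraries were the 2 highest. Ndufa6, an N-module subunit, had 94.7 and 88.96 FPKM on 0 g/kg, 85.4 and 97.5 on 0.4 g/kg, 110 and 98.6 on 0.8 g/kg, and 123 and 103 on 8 g/kg. The fold change on 0.4 g/kg was -0.30 (SE 0.124, limma adjusted p = 0.483), and -0.42 to -0.17 with 1 library left out. Ndufv1 had -0.25 on 0.8 g/kg (SE 0.122, limma adjusted p = 0.998).

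Ndufc1, a small ND2-module subunit, was among the higher ones, with 10.7 and 10.5 FPKM on 0 g/kg, 12.0 and 13.1 on 0.4 g/kg, 10.5 and 13.4 on 0.8 g/kg, and 11.03 and 10.6 on 8 g/kg. Its fold change was 0.20 on 0.4 g/kg (SE 0.129, limma adjusted p = 0.628). The fold change of Ndufb2 on 0.8 g/kg was 0.21 (SE 0.158, limma adjusted p = 0.998). No diet comparison separated these genes beyond the threshold.

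Set against the 2 partial diets together, 0 g/kg gave a median of -0.079 over the subunits, while all tested genes had 0.039. Below 0 were 32 of 36, beside 39.6% of tested genes. The median was -0.12 under both median-of-ratios and quantile scaling, beside 0.00016 and -0.027 for all tested genes. Only Ndufb3 and Ndufa5 lay wholly below the 4 partial-diet libraries, and 0 subunits lay above, where 5.44% and 10.8% of tested genes did. Ndufa5, an accessory subunit of the Q module, had 26.9 and 23.1 FPKM on 0 g/kg, 27.9 and 29.4 on 0.4 g/kg, 28.7 and 27.2 on 0.8 g/kg, and 28.4 and 29.2 on 8 g/kg (-0.18, SE 0.085, limma adjusted p = 0.807). At an unadjusted p under 0.05, 1 subunit was lower and 0 higher in limma, beside 2.14% and 4.51% of tested genes. In limma-voom 1 was lower and 0 higher too, beside 1.87% and 5.66%. The 2 libraries on 0 g/kg differed in this comparison. In TALL2 the subunits summed to 1841 FPKM on 0 g/kg, above 1794 on 0.4 g/kg and 1776 on 0.8 g/kg. In TALL3 they summed to 1664 FPKM on 0 g/kg, below 1901 on 0.4 g/kg and 1917 on 0.8 g/kg.

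A slope was fitted over the diets ranked by falling valine, in log2 units per step. The median slope of the subunits was -0.054, beside -0.0062 for all genes, and 32 of 36 slopes were below 0, beside 53.3% of tested genes. At an unadjusted p under 0.05, 8 subunits had a falling slope and 0 a rising one in limma, where 6.37% and 5.9% of tested genes did, and 7 and 0 in limma-voom, beside 6.24% and 5.85%. Among the subunits, Ndufb11 (-0.085, SE 0.0258, limma adjusted p = 0.288), Ndufa7 (-0.11, SE 0.0336, limma adjusted p = 0.302) and Ndufs3 (-0.11, SE 0.0346, limma adjusted p = 0.312) had the smallest p. Ndufa7, a small N-module subunit, had 58.5 and 54.0 FPKM on 0 g/kg, 58.5 and 62.9 on 0.4 g/kg, 62.8 and 71.2 on 0.8 g/kg, and 63.6 and 76.7 on 8 g/kg. Ndufaf2 had the largest rising slope, 0.16 (SE 0.0436, limma adjusted p = 0.251). By diet means, 26 of 36 subunits were lowest on 0 g/kg, 23 were highest on 8 g/kg and 0 were highest on 0 g/kg. Of tested genes these were 22.5%, 38.4% and 33.4%. In TALL2 the summed FPKM of the subunits was higher on 0 g/kg than on either partial diet, and in TALL3 it was lower.

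Because the diets differ in valine, the share of valine codons (GTN, with N any base) was counted in the coding sequences of the mouse genes. The 36 subunits had a median of 6.99% valine codons, beside 6.08% for 9656 tested genes with quartiles of 4.98% and 7.25%, and 23 were above that median. Core subunits had a median of 7.26%, and 6 of 7 were above the table's median. Assembly factors had a median of 6.91%. The exception among core subunits was Ndufs8, with 2.36%. The extremes were Ndufc1 with 10.5%, Ndufa9 with 10.1% and Ndufa1 with 10%, and on the other side Ndufb9 with 2.23% and Ndufs5 with 0 of 106 codons. RNA levels say nothing of the translation of these codons, which was not measured here.

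To show this range, the first 70 codons are given for Ndufa1 (7 valine codons in the stretch), Ndufs5 (0) and Ndufb3 (1), from the GENCODE transcripts of GRCm38. The genes lie at chrX:37187588-37191163 on the minus strand, chr4:123712710-123718202 on the minus strand and chr1:58586384-58595964 on the plus strand. Capitals mark valine codons.
Ndufa1: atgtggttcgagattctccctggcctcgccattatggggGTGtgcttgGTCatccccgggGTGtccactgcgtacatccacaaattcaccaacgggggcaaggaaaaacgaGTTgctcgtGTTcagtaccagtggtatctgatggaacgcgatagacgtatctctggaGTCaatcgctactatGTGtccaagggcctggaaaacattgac
Ndufs5: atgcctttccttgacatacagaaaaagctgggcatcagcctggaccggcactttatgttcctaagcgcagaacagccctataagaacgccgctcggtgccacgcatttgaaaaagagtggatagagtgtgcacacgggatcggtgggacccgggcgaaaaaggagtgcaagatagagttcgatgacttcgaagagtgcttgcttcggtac
Ndufb3: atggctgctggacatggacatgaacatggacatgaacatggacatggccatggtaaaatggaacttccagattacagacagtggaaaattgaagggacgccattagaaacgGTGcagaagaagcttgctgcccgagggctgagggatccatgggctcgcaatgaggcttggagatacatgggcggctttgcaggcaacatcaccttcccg
The gene with the lowest 0 against 8 g/kg fold change, Ndufb3, was poor in valine codons (3.85% of 104 codons), and Ndufa1, the richest of these 3, had a fold change of -0.18. Across the 36 subunits the valine codon share and the fold change of 0 against 8 g/kg had a Pearson r of -0.13 and a Spearman rho of 0.011. This is a description across genes that share the same libraries.

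**Figure D5:**
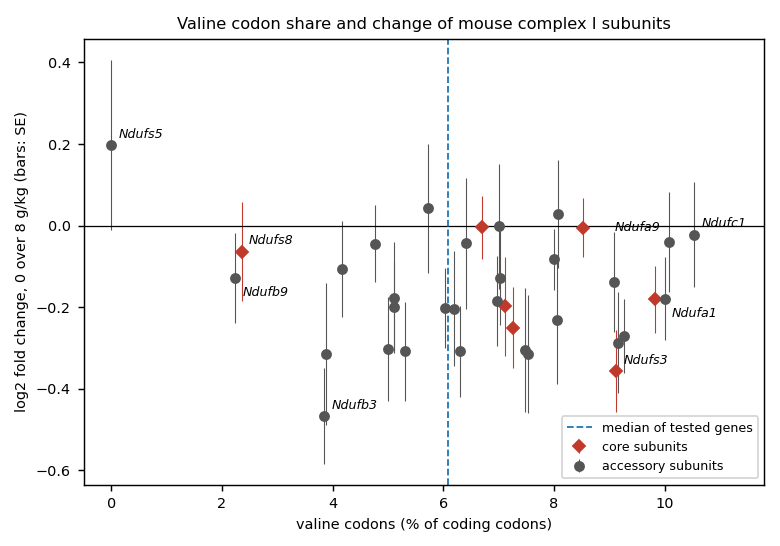
Valine codon share of the coding sequence (x axis, percent) against the log2 fold change of 0 over 8 g/kg (y axis, bars are the SE) for 36 mouse subunits. Diamonds are core subunits, circles accessory ones, and the dashed line is the median of tested genes, 6.08%. Ndufb3 and Ndufs5 both lie left of it with the lowest and the highest change.

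Sequences shared with other genes limit some of these values. By 50-base stretches of the annotated transcripts, 53.8% of Ndufa12, 37% of Ndufb4, 35.8% of Ndufs3, 31.1% of Ndufs5 and 23.4% of Ndufb9 also occur in another annotated gene, which is a processed pseudogene for all but Ndufb9. How the authors counted reads that fit both is not given in the sources used here, so the values of these 5 genes, among them Ndufs3, are uncertain. For Ndufb3 the share was 6.72%, for Ndufaf2 0%.

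The subunit genes lie on 15 chromosomes. In the 250 bases before the RefSeq gene start (GRCm38.p6), 32 subunits had a stretch to search. The 10-letter motif of NRF1, a regulator of respiratory genes, with any base at the sixth letter, was sought on both strands and found in 6 of them (18.8%), Ndufa11, Ndufa5, Ndufa8, Ndufb4, Ndufs5 and Ndufs6. It was found in 10.5% of 7803 tested genes. The YY1 motif AANATGGCG was in 2 (6.25%, against 2.97% of tested genes), Ndufa7 and Ndufb11. The GABPA motif CCGGAAGT and the ERR motif TCAAGGTCA were in 0, beside 7.64% and 0.333% of tested genes. A match is only a match of letters. Parts of these stretches lie in annotated exons, such as all of the last 120 bases in Ndufb11.

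The NRF1-type motif is shown in 30-base windows, in capitals, for 3 of these genes. They are Ndufa11 at chr17:56717692-56717721 on the plus strand, Ndufb4 at chr16:37654540-37654569 and Ndufs5 at chr4:123718265-123718294, both on the minus strand.
Ndufa11: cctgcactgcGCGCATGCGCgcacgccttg
Ndufb4: gagaagcagtGCGCACGCGCagaatacgcg
Ndufs5: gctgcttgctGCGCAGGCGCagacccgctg
The motif ends 51 bases before the RefSeq start in Ndufa11 and 89 before it in Ndufs5. Ndufb4 holds 3 matches, ending 182, 70 and 13 bases before the start, and the farthest is shown. Of the 120 bases next to the start, 44 in Ndufa11, 85 in Ndufb4 and 16 in Ndufs5 overlap an annotated exon. In GENCODE, Ndufb4 spans chr16:37647170-37654453, so its match 13 bases before the RefSeq start lies inside that span. Of these genes Ndufa11 was below control in every restricted library, Ndufs5 overlapped it, and Ndufb4 had 4.58 and 3.49 FPKM on 0 g/kg, 4.35 and 4.66 on 0.4 g/kg, 4.98 and 4.80 on 0.8 g/kg, and 6.01 and 4.54 on 8 g/kg.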

How the data were processed

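RNA-seq of 12 libraries was used. The authors deposited FPKM for each gene in a human and a mouse table, which were analysed apart. The submitters' processing notes name STAR, edgeR, hg19 and mm10, without roles; how genes were defined and reads counted is not stated there. Whole reads and gene lengths were recovered from the FPKM steps (relative tolerance 3e-13), with a whole length (to 0.01 bp) in the human table for 95.8% of genes, in the mouse table for 99.6%. Genes averaging 1 FPKM or more were tested by limma 3.58.1 (R 4.3.3), two-sided, with a variance trend over the mean of log2(FPKM + 1), Benjamini-Hochberg adjusted over all tested genes, at a threshold of 0.05. A fold change on this scale understates the change of low genes. Calls from recovered reads used limma-voom for genes with a mean of at least 10 reads. The 8 mouse libraries were fitted together. Over the genes of each table together, replicates differed beyond counting noise (chi-square over degrees of freedom 5.74 to 93.6).

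Members and lists were chosen with earlier results of these data known. Values per library are given for core subunits and for members with statistics; 1 core subunit is counted in the totals but not reported here by itself. Statistics are given for every member past the threshold and for the 3 lower and 3 higher members with the smallest p. Module membership was written by hand from general knowledge. Mouse coding sequences are from GENCODE (GRCm38), upstream windows from RefSeq. Human coordinates were not analysed here. Methods were tested on simulated data. The alternatives used quantile or median-of-ratios scaling, a filter at 5 FPKM or none, a pseudocount of 0.1 or 5, no trend, the replicate number as a block, limma-voom, leaving out each library, leaving out both 0.4 g/kg libraries and fitting only the diets compared.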

Additional observations from a re-analysis of the deposited data

How the results depend on the processing

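The number of KOPTK1 subunits called was 4. It was 10 with no filter on low values, 1 when genes needed a mean of 5 FPKM, and 12 with limma-voom on reads, an alternative chosen after seeing the data; these settings test other numbers of subunits. The median log2 fold change was -0.18 with the 5 FPKM filter. Leaving out 1 library gave 3 to 6 calls and a median of -0.096 to -0.0096. Over all genes tested 3547 were called, 5374 with no filter, 1139 with the 5 FPKM filter, 6234 on reads and 2226 without gSI replicate 2. In the mouse, 0 subunits were called under every alternative run. The medians with 1 library left out ran from -0.23 to -0.13 for 0 against 8 g/kg, -0.11 to -0.025 for 0.4 against 8, -0.14 to -0.031 for 0.8 against 8, -0.13 to -0.041 for 0 against the mean of 0.4 and 0.8, and -0.059 to -0.036 per step for the slope. Of 697 values of named members under alternatives, 676 kept direction and side of the threshold, 10 lost a call, 7 gained one and 4 turned sign. The last were Ndufc1 for 0.8 against 8 g/kg without TALL3 at 0.8 g/kg (-0.032), with leave-one-out values of -0.032 to 0.29, Ndufaf4 for 0 g/kg against the mean of 0.4 and 0.8 under quantile scaling (-0.0197), Ndufa10 for the same comparison without TALL2 at 0 g/kg (-0.12), with leave-one-out values of -0.12 to 0.25, and the slope of Ndufs6 without TALL2 at 8 g/kg (-0.0016), with leave-one-out values of -0.0016 to 0.054. Of 30 mouse fold changes or slopes of named members, none of them called, 15 moved by over 1.5 times when 1 library was left out, such as Ndufs5 for 0 against 8 g/kg (0.015 to 0.38), and Ndufv1 (-0.36 to -0.14) and Ndufb2 (0.12 to 0.29) for 0.8 against 8 g/kg. Leaving out a library was not run for the fit on reads. None of the 4 that turned sign was called under the settings of the report, and the cause was not tested. With 2 libraries per group and 27 to 7722 reads per mouse subunit, the precision is limited. Over the genes of each table together, the spread between libraries exceeded counting noise. That comparison was not made for the subunits alone.

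The labels do not say what the replicate numbers stand for, so they were not used as pairs in the main fits. Deviations of same-numbered mouse libraries from their diet means were correlated over 9943 genes. The correlation was 0.743 for 8 and 0.8 g/kg, 0.566 for 8 and 0 g/kg and 0.0588 for 8 and 0.4 g/kg. It was 0.425 for 0.4 and 0 g/kg, 0.363 for 0.8 and 0 g/kg and -0.174 for 0.8 and 0.4 g/kg. The 1 human pair had 0.258. Whether the numbers mark pairs is not settled by these values. With the replicate number as a block, 6 KOPTK1 subunits and 3705 genes were called, and 0 in the mouse.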
